A study of Mus musculus with 6 samples.

Results

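The Serpinb genes of cultured mouse keratinocytes are described here. They are the table rows whose symbol is Serpinb followed by a number and any copy letter, 26 genes of the 30349 listed. Levels come from 3' digital sequencing of 6 cultures of primary epidermal keratinocytes from mice at postnatal day 2, of which 3 carry the p63 alphaKO genotype (replicates 9, 10 and 11) and 3 are wild type (replicates 13, 14 and 15). All 6 grew for 5 to 6 days to full confluence in 0.05 mM calcium, EGF at 2.5 ng/mL and 4% chelated serum. The labels name no strain, do not say what is missing from Trp63 in p63 alphaKO, and do not tie the cultures to separate animals, so p-values measure the spread between these cultures, which may be technical.

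Serpins are protease inhibitors that offer an exposed loop as bait. A target protease cuts the loop and is trapped as the serpin refolds. The clade B members lack a classical signal peptide and act mostly inside cells. In stratified epithelia they are known for restraining lysosomal, plasminogen-activating and trypsin-like proteases. The mouse genes form a cluster on chromosome 1 and another on chromosome 13. Several human genes correspond to sets of mouse copies, such as Serpinb1a to Serpinb1c, Serpinb3a to Serpinb3d, Serpinb6a to Serpinb6e and Serpinb9 to Serpinb9g.

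The promoters of Serpinb2, Serpinb5 and Serpinb7 are shown because the libraries of the genotypes did not overlap for Serpinb2 or Serpinb7 and overlapped for Serpinb5. Such separation held for 2 of the 15 members tested below, where it held for 11.5% of all genes tested. Serpinb5 is the first member of the same cluster, and other members lie between it and Serpinb7 and Serpinb2. Each window runs from 250 bases before the RefSeq start to 50 bases after it, on the plus strand of GRCm38.p6. Capitals mark the AP-1 motif TGANTCA and the TATA motif TATAAA, either of them on either strand. The windows are chr1:107511173-107511472 for Serpinb2, the first of its annotated starts, chr1:106860925-106861224 for Serpinb5 and chr1:107422439-107422738 for Serpinb7.
Serpinb2: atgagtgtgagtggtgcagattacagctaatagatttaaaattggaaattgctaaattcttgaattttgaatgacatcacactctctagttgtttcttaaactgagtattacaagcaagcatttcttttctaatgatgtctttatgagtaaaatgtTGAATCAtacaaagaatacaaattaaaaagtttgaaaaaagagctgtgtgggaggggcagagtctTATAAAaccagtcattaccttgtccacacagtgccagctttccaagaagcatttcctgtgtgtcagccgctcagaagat
Serpinb5: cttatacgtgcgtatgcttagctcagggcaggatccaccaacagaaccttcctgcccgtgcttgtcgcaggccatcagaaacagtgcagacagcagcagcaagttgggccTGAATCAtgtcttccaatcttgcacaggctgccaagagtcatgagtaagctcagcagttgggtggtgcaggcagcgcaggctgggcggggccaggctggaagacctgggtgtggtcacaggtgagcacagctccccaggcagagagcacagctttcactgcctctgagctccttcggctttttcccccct
Serpinb7: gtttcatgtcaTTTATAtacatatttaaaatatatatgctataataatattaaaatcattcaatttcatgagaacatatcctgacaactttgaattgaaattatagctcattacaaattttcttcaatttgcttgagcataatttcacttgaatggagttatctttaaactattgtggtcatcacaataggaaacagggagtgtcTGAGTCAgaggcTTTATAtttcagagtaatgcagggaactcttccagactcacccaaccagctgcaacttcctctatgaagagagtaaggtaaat

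The AP-1 motif began 94 bases before the start of Serpinb2, 140 before that of Serpinb5 and 45 before that of Serpinb7. TATAAA began 29 bases before the start of Serpinb2 and 33 before that of Serpinb7, and a further copy lay 239 bases before the start of Serpinb7. For Serpinb7 these distances hold for the RefSeq start alone, as GENCODE vM21 begins the gene upstream, at chr1:107399655. RefSeq windows were found for 24 of the 26 members. The AP-1 motif was in the windows of 6 of the 10 members matched on chromosome 1 (Serpinb2, Serpinb5, Serpinb7, Serpinb8, Serpinb11 and Serpinb12) and in those of 0 of the 14 matched on chromosome 13. Counted by window, it was in 7 of the 30 Serpinb windows and in 7.81% of all 32851 windows of this length. TATAAA was in the windows of 7 members on chromosome 1, the 4 Serpinb3 copies among them, and of 2 on chromosome 13. By window this was 11 of 30, against 13.6% of all windows. The paired core of the p53 family motif was found for Serpinb6c alone, in 1 of the 30 windows, and in 7.22% of all windows. These matches are of letters, not of binding.

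The libraries held 1699716 to 2999246 reads in p63 alphaKO and 3146374 to 3215333 in wild type, and a level is given as CPM, the count per 1000000 reads. A value of 0 allows up to the level of 3 reads, between 0.933 and 1.76 CPM depending on the library. The library least like the rest was p63 alphaKO replicate 11, whose Pearson correlations with the others across genes were 0.915 to 0.934, against 0.936 to 0.958 among the other 5. Trp63 was at 49.8, 59.3 and 57.0 CPM in p63 alphaKO and at 38.0, 53.2 and 48.9 CPM in wild type; a 3' level of the whole gene does not check the genotype. Each of the 10 keratinocyte markers was detected, Krt5 and Krt14 among them. Of 10 immune markers 6 had no read in any library, Cd207, H2-Aa and Cd3e among them. The immune list summed to 2.34 to 8.67 CPM in p63 alphaKO and 0.93 to 6.35 CPM in wild type. Fibroblast markers summed to 15.3 to 69.7 CPM in p63 alphaKO and 27.6 to 64.1 CPM in wild type, and melanocyte markers to 232 to 1018 CPM and 303 to 817 CPM in the same order. Endothelial markers, with Kdr and Emcn at 0, summed to 1.37 to 3.53 CPM in p63 alphaKO and to at most 2.54 CPM in wild type. Muscle markers summed to 17.4 to 74.1 CPM in p63 alphaKO and 77.9 to 694 CPM in wild type, the highest in replicate 15, with Myh3 at 0. The part of these cells in any Serpinb level was not tested, and in a bulk sample fewer cells of a type cannot be told apart from less RNA per cell.

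No Serpinb member passed the test between the genotypes. Of the 26, 15 reached a mean of 1 CPM over the 6 libraries and were tested, 2 were detected below that mean, and 9 had no read in any library. The test was limma on log2(CPM + 1) over all 11716 genes that reached that mean, with Benjamini-Hochberg adjustment over all of them, and called 0 of the 15 members against a background of 0.0427% of genes called. edgeR and DESeq2 on the recovered reads called 0 members too, with backgrounds of 0.0171% and 0.154%. At an unadjusted p under 0.05 stood 3 members, Serpinb1b, Serpinb2 and Serpinb7, by each of the 3 tools, where the limma background is 6.36%. The smallest adjusted p of a member was 0.674, for Serpinb7. Of the 15 log2 fold changes (p63 alphaKO over wild type), 9 were below 0 and their median was -0.15, against 49.3% below 0 and a median of 0.01 over all genes tested. Serpinb1a, on the side above 0, reached the mean for the test only through p63 alphaKO. The libraries of the genotypes did not overlap for 2 members, both lower in p63 alphaKO, and for 0 members higher, where the background over all genes tested is 5.09% lower, 6.45% higher and 11.5% in either direction. Leaving out p63 alphaKO replicate 11 and wild type replicate 15 gave log2 fold changes of -0.67 for Serpinb2, -1.42 for Serpinb7, 0.71 for Serpinb1b and 1.62 for Serpinb9, with 0 members past the threshold. By limma with single libraries left out, the members at an unadjusted p under 0.05 changed. Serpinb1b stood there alone without wild type replicate 13, and Serpinb7 alone without wild type replicate 14. Serpinb2 was among them only without p63 alphaKO replicate 11 or wild type replicate 15. Serpinb9, Serpinb11 and Serpinb12 each entered in a fit.

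**Figure D1:**
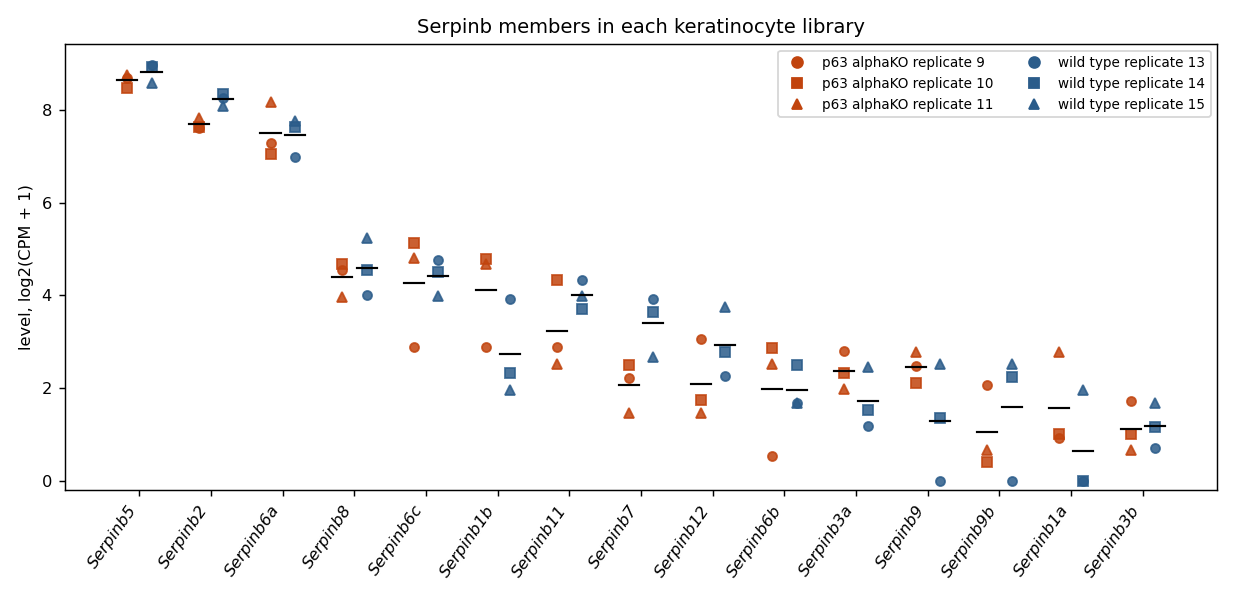
Level of each of the 15 tested Serpinb members as log2(CPM + 1) on the vertical axis, with the 3 p63 alphaKO libraries left of the 3 wild type libraries and a bar at the mean of each genotype. The symbols of the genotypes are apart for Serpinb2 and Serpinb7 and overlap for the other 13.

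The reads of the family were concentrated in Serpinb5, Serpinb2 and Serpinb6a. Together these took 91.5%, 84.3% and 90.8% of the Serpinb reads in p63 alphaKO replicates 9, 10 and 11, and 90.6%, 91.6% and 88.9% in wild type replicates 13, 14 and 15. The lowest share was that of p63 alphaKO replicate 10, where Serpinb1b, Serpinb6c and Serpinb11 stood higher than in the other cultures of their genotype. All Serpinb reads together came to 830, 810 and 1039 CPM in p63 alphaKO and to 1028, 1098 and 977 CPM in wild type. These sums overlap, because p63 alphaKO replicate 11 lay above wild type replicates 13 and 15. A member with at least 1 read was seen 16, 15 and 15 times in p63 alphaKO and 12, 15 and 16 times in wild type.

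**Figure D2:**
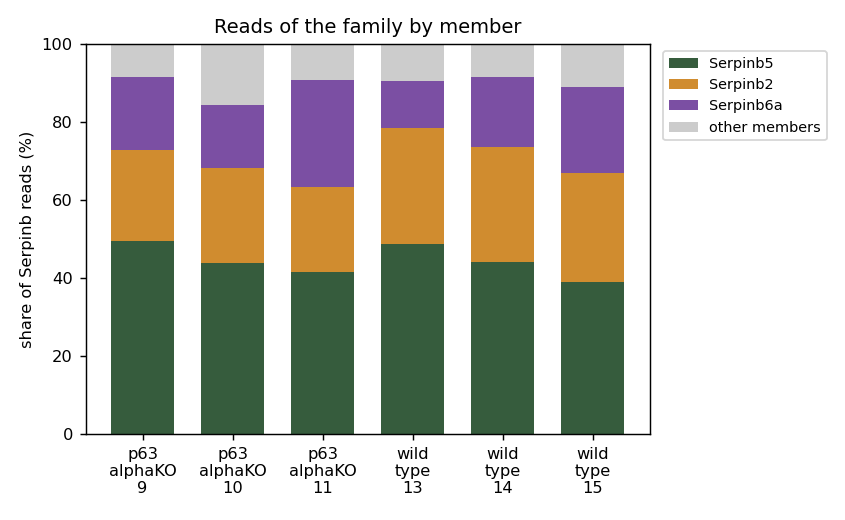
Share of each library's Serpinb reads, in percent, taken by Serpinb5, Serpinb2, Serpinb6a and all other members, with p63 alphaKO libraries left of wild type libraries. Serpinb2 took 23.5%, 24.4% and 21.8% in p63 alphaKO and 29.6%, 29.5% and 27.9% in wild type.

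Serpinb2, or plasminogen activator inhibitor 2, inhibits urokinase and is crosslinked into the cornified envelope of the skin. Its level was 195, 197 and 227 CPM in p63 alphaKO and 304, 324 and 272 CPM in wild type. Every p63 alphaKO culture lay below every wild type culture. The means were 206.4 ± 17.8 CPM in p63 alphaKO and 299.99 ± 25.9 CPM in wild type (SD, n = 3 each), a log2 fold change of -0.54 (SE 0.21, 95% interval -0.98 to -0.10, limma adjusted p = 0.729). As a share of Serpinb reads it was 21.8% to 24.4% in p63 alphaKO, where the exact 95% intervals of single libraries span 19.9% to 26.1%, and 27.9% to 29.6% in wild type, where they span 26.3% to 31.2%. These intervals cover counting error only. The Serpinb2 gene (chr1:107511423-107535478, plus strand) overlaps Serpinb10 on the same strand over 6476 bases. Serpinb10 is not among the genes listed, so its reads could not be examined.

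Serpinb5 encodes maspin, a clade B serpin that does not inhibit proteases and is known as a suppressor of tumour growth and cell migration. It was at 411, 354 and 431 CPM in p63 alphaKO and at 502, 484 and 381 CPM in wild type. The groups overlap, as wild type replicate 15 lay below p63 alphaKO replicates 9 and 11. The log2 fold change was -0.19 (SE 0.21, 95% interval -0.64 to 0.26, limma adjusted p = 0.935). The ratio of Serpinb2 to Serpinb5 within a library, which a single scaling factor per library cannot change, was 0.475, 0.557 and 0.526 in p63 alphaKO and 0.606, 0.668 and 0.714 in wild type. This ratio was chosen after the values were seen, and with 3 libraries against 3 an exact two-sided permutation test cannot go below 0.1.

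Serpinb7 is an inhibitor of the upper epidermis whose loss in humans causes the Nagashima type of palmoplantar keratosis. It was at 3.65, 4.67 and 1.76 CPM in p63 alphaKO and at 14.1, 11.5 and 5.40 CPM in wild type. Here again the groups did not overlap, and the closest were p63 alphaKO replicate 10 and wild type replicate 15. These levels rest on 25 reads in all p63 alphaKO libraries together and 99 in the wild type ones. The log2 fold change was -1.35 (SE 0.47, 95% interval -2.34 to -0.36, limma adjusted p = 0.674), and it ranged from -1.72 to -1.05 with each library left out.

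Serpinb8, Serpinb11 and Serpinb12 lie in the same cluster on chromosome 1. Serpinb8, an inhibitor of furin whose loss in humans causes peeling skin, was at 22.4, 24.7 and 14.7 CPM in p63 alphaKO and at 15.1, 22.4 and 36.5 CPM in wild type. Its groups overlapped widely, with the extremes in p63 alphaKO replicate 11 and wild type replicate 15 (log2 fold change -0.19, SE 0.35, limma adjusted p = 0.984). Serpinb11, whose human counterpart does not inhibit proteases, was at 6.39, 19.0 and 4.70 CPM in p63 alphaKO and at 19.2, 12.1 and 14.9 CPM in wild type. Replicate 10 of p63 alphaKO stood among the wild type cultures and the other p63 alphaKO cultures below them (-0.77, SE 0.44, adjusted p = 0.822). The log2 fold change of Serpinb11 was -1.32 without that replicate and -0.41 without p63 alphaKO replicate 11. Serpinb12, an inhibitor of trypsin-like proteases, was at 7.31, 2.33 and 1.76 CPM in p63 alphaKO and at 3.77, 5.91 and 12.4 CPM in wild type, again overlapping (-0.84, SE 0.53, adjusted p = 0.859). With single libraries left out the Serpinb12 value ran from -1.33, without p63 alphaKO replicate 9, to -0.44, without wild type replicate 15, and it was -0.13 without p63 alphaKO replicate 11 and wild type replicate 15.

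The Serpinb3 copies correspond to the human squamous cell carcinoma antigens, inhibitors of lysosomal cathepsins and chymotrypsin-like proteases. Serpinb3a was at 5.94, 4.00 and 2.94 CPM in p63 alphaKO and at 1.26, 1.87 and 4.45 CPM in wild type. Wild type replicate 15 lay among the p63 alphaKO cultures (log2 fold change 0.65, SE 0.52, limma adjusted p = 0.904). Serpinb3b was at 2.28, 1.00 and 0.59 CPM in p63 alphaKO and at 0.63, 1.24 and 2.22 CPM in wild type, with no order between the groups (-0.06, SE 0.60, adjusted p = 0.997). Serpinb3c had 1 read in p63 alphaKO against 4 in wild type. The ratio of these rates was 0.346 (p63 alphaKO over wild type, exact 95% interval 0.00703 to 3.50, for counting error only), and all 4 wild type reads came from replicate 14. Serpinb3b and Serpinb3c overlap on the same strand over 7161 bases, and no source used here gives the options of the counting. Serpinb3d had no read, nor did Serpinb13, whose human counterpart inhibits cathepsins L and K in keratinocytes.

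Serpinb6a led the chromosome 13 cluster in reads. Its human counterpart inhibits cathepsin G, and its loss impairs hearing in mice and in humans. It was at 154, 131 and 286 CPM in p63 alphaKO and at 126, 198 and 215 CPM in wild type. The highest culture was p63 alphaKO replicate 11 and the lowest wild type replicate 13, and the groups overlap (log2 fold change 0.04, SE 0.29, 95% interval -0.57 to 0.65, limma adjusted p = 0.997). Within genotypes its reads spread 59.0 times more than counting alone would give, as a variance, against 19.6 times for Serpinb5 and 5.04 times for Serpinb2. Serpinb6a overlaps Nqo2 on the opposite strand over 23757 bases; no source used here gives the strand setting of the counting, and Nqo2 itself was at most at 14.1 CPM.

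The copies Serpinb6b and Serpinb6c shared a low value in p63 alphaKO replicate 9. Serpinb6c was at 6.39, 34.0 and 27.0 CPM in p63 alphaKO and at 26.1, 21.8 and 14.9 CPM in wild type (log2 fold change -0.15, SE 0.46, limma adjusted p = 0.993). Serpinb6b was at 0.46, 6.33 and 4.70 CPM in p63 alphaKO and at 2.20, 4.66 and 2.22 CPM in wild type (0.02, SE 0.61, adjusted p = 0.998). For both copies, replicate 9 was the lowest of the 6 cultures and replicate 10 the highest, so the p63 alphaKO cultures enclose the wild type range. Serpinb6d and Serpinb6e had no read.

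Serpinb1b had the highest log2 fold change of the family in the fit on all libraries, without passing the test. With a pseudocount of 0.5 Serpinb9 was higher (1.51 against 1.47), as it was without wild type replicate 15 (1.78 against 0.99). Serpinb9 was higher also without wild type replicate 14 (1.195 against 1.185) or p63 alphaKO replicate 10 (1.34 against 1.05). Without both p63 alphaKO replicate 11 and wild type replicate 15 it was 1.62 against 0.71. Serpinb1a and Serpinb3a also exceeded Serpinb1b without wild type replicate 15 (1.57 and 1.02). Serpinb1b is a copy related to Serpinb1a, the inhibitor of neutrophil elastase and cathepsin G. It was at 6.39, 26.7 and 24.7 CPM in p63 alphaKO and at 14.1, 4.04 and 2.86 CPM in wild type. Replicates 10 and 11 of p63 alphaKO lay above every wild type culture, and replicate 9 lay below wild type replicate 13. The log2 fold change was 1.39 (SE 0.55, 95% interval 0.23 to 2.54, limma adjusted p = 0.736), and 2.00 without p63 alphaKO replicate 9. Serpinb1a had 2, 3 and 10 reads in p63 alphaKO replicates 9, 10 and 11 and 0, 0 and 9 reads in wild type replicates 13, 14 and 15. It averaged 2.60 CPM in p63 alphaKO and 0.953 CPM in wild type, so it reached the mean for the test only through p63 alphaKO. Most of its reads came from p63 alphaKO replicate 11 and wild type replicate 15 (log2 fold change 0.92, SE 0.72, adjusted p = 0.898). Without the first of these libraries the Serpinb1a value was 0.32, and without the second it was 1.57. Serpinb1c had no read.

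Of the Serpinb9 copies, Serpinb9 and Serpinb9b were tested. Serpinb9 is known for inhibiting granzyme B, and so protects cytotoxic lymphocytes from their own granules. It had 10 reads in each p63 alphaKO library, at 4.57, 3.33 and 5.88 CPM, and 0, 5 and 15 reads in the wild type libraries, at 0, 1.55 and 4.76 CPM. Wild type replicate 15 reached the p63 alphaKO range and the other wild type cultures lay below it (log2 fold change 1.17, SE 0.61, 95% interval -0.12 to 2.45, limma adjusted p = 0.795). The Serpinb9 value was 0.52 without wild type replicate 13 and 1.78 without wild type replicate 15. The lymphocyte genes Cd3e and Nkg7, and Gzmb itself, had no read in any library. Of the other immune markers, Ptprc had 2 reads, both in p63 alphaKO replicate 10, and Lyz2 had 2, both in replicate 9. Cd74 had 1 read, in wild type replicate 13. Csf1r reached 7.76 CPM in p63 alphaKO and 6.35 CPM in wild type. The part of immune cells in the Serpinb9 level was not tested. Serpinb9b was at 3.20, 0.33 and 0.59 CPM in p63 alphaKO and at 0, 3.73 and 4.76 CPM in wild type, overlapping (-0.54, SE 0.72, adjusted p = 0.954). Serpinb9e had 1 read, in wild type replicate 15, and Serpinb9c, Serpinb9d, Serpinb9f and Serpinb9g had none.

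**Figure D3:**
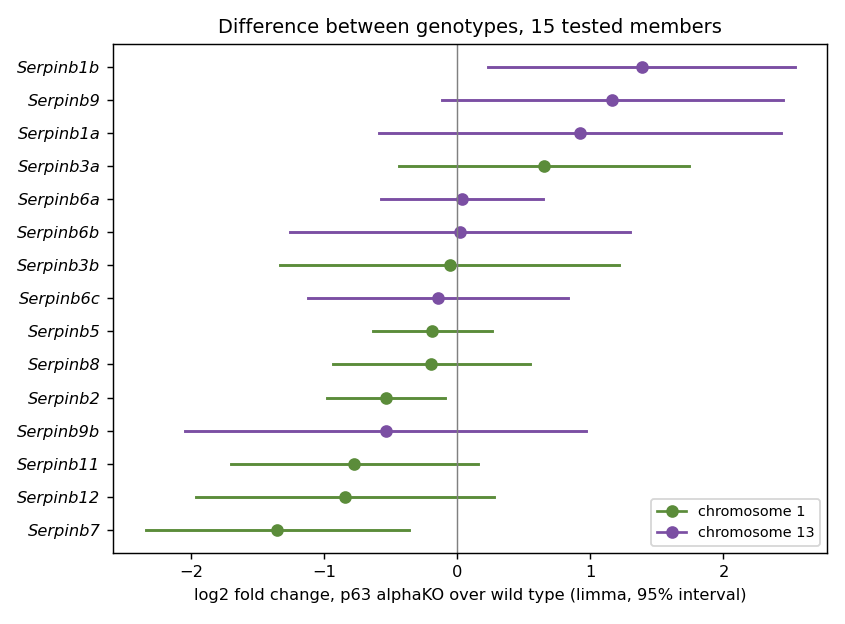
Log2 fold change, p63 alphaKO over wild type, of the 15 tested members with limma's 95% interval, coloured by chromosome. The interval lies above 0 for Serpinb1b and below 0 for Serpinb2 and Serpinb7 before adjustment over genes; the other 12 intervals cross 0.

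For some members, near-identical copies limit what a level of 0 can show. Over the last 300 bases of the GENCODE vM21 transcripts, where a 3' assay reads, Serpinb9e and Serpinb9f were 98.3% identical and Serpinb3a and Serpinb3c 92.3%. Of the stretches of 50 bases in that window, 100% of those of Serpinb9f and 51.8% of those of Serpinb9e occur also in another gene. That share was 28.3% for Serpinb9d, 12.4% for Serpinb3d, 11.2% for Serpinb9g and 5.3% for Serpinb6d, which had no read. It was 8.3% for Serpinb6c, 7.4% for Serpinb3b, 3.3% for Serpinb6a and 0.6% for Serpinb1a. It was 0 for Serpinb2, Serpinb5, Serpinb7, Serpinb8, Serpinb11 and Serpinb12. The share was 0 too for Serpinb1b, Serpinb3a, Serpinb3c, Serpinb6b, Serpinb9 and Serpinb9b. Among members with no read it was 0 for Serpinb1c, Serpinb6e, Serpinb9c and Serpinb13. No source used here says how reads that match several genes were treated, so the levels of the members that share stretches are uncertain. Only exact matches were counted, so the levels of close copies such as Serpinb3a and Serpinb3c are uncertain too.

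By position, the chromosome 1 cluster (chr1:106861173-107610484 in GRCm38, from Serpinb5 to Serpinb8) holds 11 members and the chromosome 13 cluster (chr13:32842092-34002794, from Serpinb1a to Serpinb6a) holds 15. On chromosome 1, 7 of the 8 tested members had a log2 fold change below 0 and the median was -0.37. Of these, Serpinb3b and Serpinb8 were above 0 without p63 alphaKO replicate 11 (0.17 and 0.02). They were above 0 also without wild type replicate 15 (0.19 and 0.12), and Serpinb3b without p63 alphaKO replicate 10. On chromosome 13, 2 of the 7 tested members were below 0 and the median was 0.04, the value of Serpinb6a. Serpinb6a was below 0 without p63 alphaKO replicate 11 (-0.30) and without wild type replicate 13 (-0.20). With each of the 6 libraries left out in turn, Serpinb6b changed sign in 4 fits and Serpinb6c in 2. Serpinb1a, above 0, reached the mean for the test only through p63 alphaKO. No member of either cluster passed the test, and whether the clusters differ was not tested. The chromosome 1 members together came to 654, 607 and 685 CPM in p63 alphaKO and to 860, 864 and 729 CPM in wild type, most of it Serpinb5 and Serpinb2. Those of chromosome 13 came to 176, 203 and 354 CPM in p63 alphaKO and to 168, 233 and 248 CPM in wild type. The first sums do not overlap between genotypes and the second do. Serpinb2, which is part of the first sums, did not overlap by itself, while Serpinb5, their largest part, did.

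**Figure D4:**
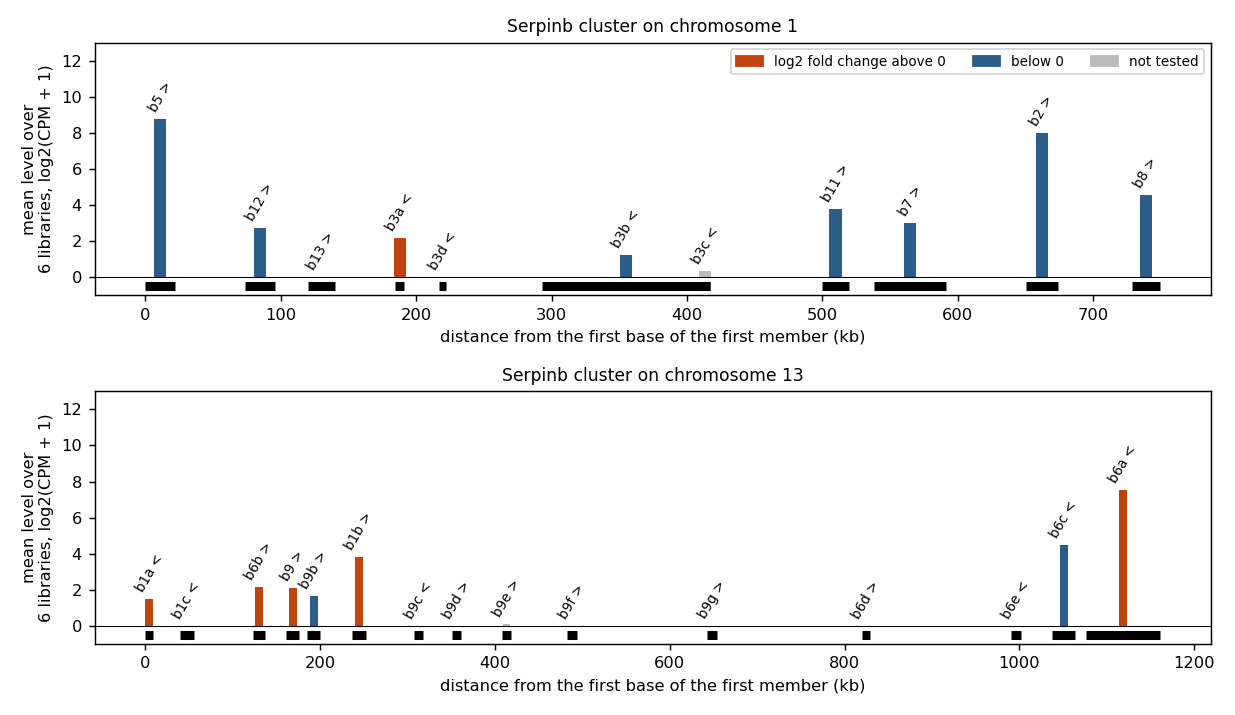
Members of the clusters on chromosomes 1 and 13 by distance, in kb, from the first base of the first member; black bars on the lower line are gene bodies, arrowheads the strand. Bar height is the mean level over the 6 libraries as log2(CPM + 1), and the colour gives the side of 0 on which the log2 fold change lies. On chromosome 1 the bars of tested members are blue, for values below 0, except that of Serpinb3a.

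Proteases that clade B serpins are reported to inhibit were not called either. Of 14 listed, 7 were tested and 0 passed, with 5 log2 fold changes below 0 and a median of -0.07. That median is the value of Cma1, which reached the mean for the test only through wild type. Cma1 averaged 0.963 CPM in p63 alphaKO and 1.25 CPM in wild type, from 6 and 12 reads. The smallest p-values were those of Ctsh (0.44), a lysosomal aminopeptidase, at 400 ± 85.5 CPM in p63 alphaKO and 291.8 ± 46.0 CPM in wild type (SD, n = 3 each), and of Plat (-0.58), a plasminogen activator. Ctsl, a lysosomal cathepsin, was at 342, 614 and 688 CPM in p63 alphaKO and at 578, 556 and 803 CPM in wild type. Furin, the target of Serpinb8, was at 63.9, 84.3 and 45.3 CPM in p63 alphaKO and at 75.4, 84.9 and 57.2 CPM in wild type. The groups overlap for both. The granule proteases Ctsg, Elane, Prtn3 and Gzmb had no read in any library.

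The plasminogen system around Serpinb2 had 8 of 10 members tested, 4 of them below 0, a median of -0.03 and 0 past the test. Plau, the urokinase that Serpinb2 inhibits, was at 91.8, 36.0 and 73.5 CPM in p63 alphaKO and at 60.3, 51.9 and 68.6 CPM in wild type. The p63 alphaKO cultures enclose the wild type range (log2 fold change 0.06, SE 0.31, limma adjusted p = 0.997). Plaur, the receptor of urokinase, was at 2.28, 13.0 and 8.23 CPM in p63 alphaKO and at 3.46, 7.15 and 2.86 CPM in wild type (0.53, SE 0.54, adjusted p = 0.926).

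Protease inhibitors of other families had 15 of 18 members tested, 8 of them below 0, a median of -0.004 and 0 past the test. Slpi, a secreted inhibitor of elastase, was at 68.0, 33.7 and 123 CPM in p63 alphaKO and at 21.4, 31.7 and 35.3 CPM in wild type (log2 fold change 1.16, SE 0.37, limma adjusted p = 0.646). Spint2, a membrane inhibitor of trypsin-like proteases, was at 25.1, 15.3 and 30.0 CPM in p63 alphaKO and at 45.9, 33.3 and 48.0 CPM in wild type (-0.86, SE 0.31, adjusted p = 0.716). The groups overlap for Slpi and not for Spint2. Cstb and Csta1, cystatins that like the Serpinb3 proteins inhibit lysosomal cathepsins, had log2 fold changes of 0.22 and -0.004.

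Serpins of other clades, 35 listed, had 8 tested, 7 of them below 0, a median of -1.11 and 0 past the test. That median is partly set by the filter. Serpina1b, Serpina1d, Serpina1e and Serpina3k averaged 0.587, 0.783, 0.393 and 0.98 CPM in p63 alphaKO. They reached the mean for the test only through wild type, at 4.41, 2.84, 2.32 and 7.81 CPM. The 1 gene above 0 reached it only through p63 alphaKO. The smallest p-values were those of Serpina3k (-1.86, adjusted p = 0.758) and Serpina1b (-1.64, adjusted p = 0.758), serpins that the liver secretes into blood, by limma. Serpina3k was at 0, 0 and 2.94 CPM in p63 alphaKO and at 5.34, 0.62 and 17.5 CPM in wild type, and Serpina1b at 0, 0 and 1.76 CPM in p63 alphaKO and at 7.54, 0.62 and 5.08 CPM in wild type. Both overlap between the genotypes. Serpinh1, the collagen chaperone, was at 27.4, 33.0 and 39.4 CPM in p63 alphaKO and at 52.5, 44.5 and 24.8 CPM in wild type.

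**Figure D5:**
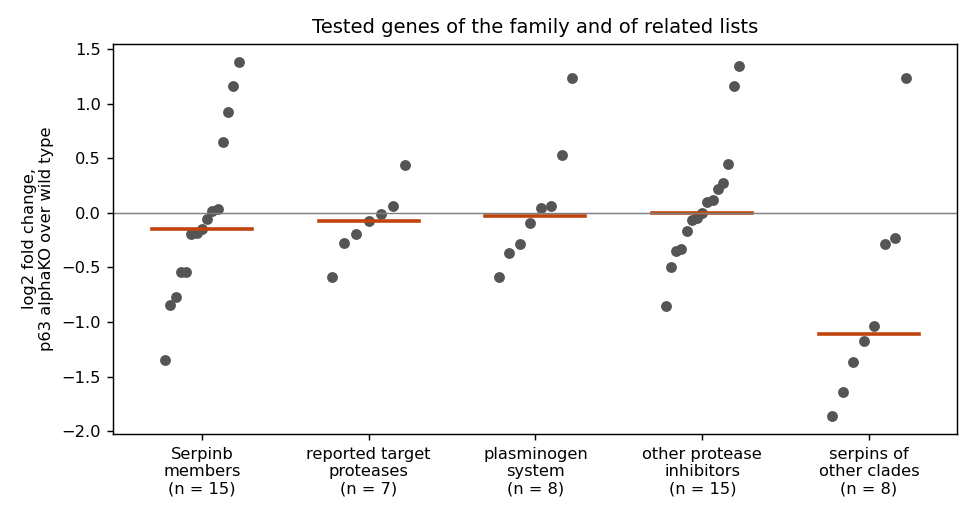
Log2 fold change, p63 alphaKO over wild type, of each tested gene (points) and the median (bars) for the Serpinb members and 4 related lists. The medians are -0.15 for the Serpinb members, -0.07 for the target proteases, -0.03 for the plasminogen system, -0.004 for inhibitors of other families and -1.11 for serpins of other clades. In the last list Serpina1b, Serpina1d, Serpina1e and Serpina3k reached the mean for the test only through wild type. So did Cma1 among the target proteases, while Serpinb1a among the Serpinb members reached it only through p63 alphaKO.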

How the data were processed

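Each deposited column is 1 library, and all 6 were used. The deposited values are CPM, as read from the table: the columns sum to 999047 to 999508. Each value above 0 was divided by that of a single read, and 100% came within 0.1 of a whole number, for 1699716 to 3215333 reads per library. The submitters' processing notes name STAR, HTSeq and mm10; no source used here gives versions, options, the annotation or any molecular identifiers. Without identifiers, intervals on reads cover counting error only.

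Genes that averaged 1 CPM or more were tested with limma 3.58.1 (R 4.3.3, eBayes with trend) on log2(CPM + 1), two-sided, with a threshold of 0.05 on the Benjamini-Hochberg adjusted p; fold changes on this scale understate those of low genes. The fit was tested on simulated data. edgeR 4.0.16 (TMM scaling, quasi-likelihood test), run on the recovered reads, called 2 genes and DESeq2 1.42.0 called 18, against 5 for limma. Each Serpinb member is named; from the protease and inhibitor lists the genes with the 2 smallest p-values are named, as none passed (1 gene that this rule names is not reported here), and others where their role bears on a member. The members and lists were chosen with earlier results of these data known. Positions are from GENCODE vM21 (GRCm38, matched to mm10), which matched 26 of 26 member symbols, and promoters from RefSeq GRCm38.p6.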

Additional observations from a re-analysis of the deposited data

How the results depend on the processing

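Under each of 15 alternatives (pseudocounts, filters, quantile and TMM scaling, edgeR, DESeq2, each library left out, and p63 alphaKO replicate 11 left out with wild type replicate 15) 0 Serpinb members passed the threshold; the smallest adjusted p of a member under any was 0.125, without those 2 libraries. The median log2 fold change of the tested members stayed below 0 with each library left out, from -0.25 to -0.07. For single libraries, the median over tested members of the log2 difference from the wild type mean had a pooled SD of 0.286 within genotypes. The number of all genes called was 2 with a pseudocount of 0.5, 3 with 5, 1 with no filter, 2 with a minimum mean of 5 CPM, 2 by edgeR, 18 by DESeq2, 31 without those 2 libraries, and 2 to 12 with each library left out (12 without p63 alphaKO replicate 11, 3 without replicate 10, 2 without wild type replicate 13 or 14). Of 219 member values under the alternatives 198 kept their sign, and 9 members kept it throughout: Serpinb1a, Serpinb1b, Serpinb2, Serpinb3a, Serpinb5, Serpinb7, Serpinb9, Serpinb11 and Serpinb12. Among these, Serpinb1a reached the mean for the test only through p63 alphaKO. The sign turned for Serpinb6b with a pseudocount of 0.5 (-0.051) and for Serpinb6c by edgeR (0.10) and DESeq2 (0.10). Without the 2 libraries above it turned for Serpinb3b (0.42), Serpinb8 (0.34), Serpinb6b (-0.38), Serpinb9b (0.12) and Serpinb6a (-0.15). With single libraries or those 2 left out, values ran from -0.35 to 0.42 for Serpinb3b, -0.49 to 0.34 for Serpinb8, -0.43 to 0.74 for Serpinb6b, -0.63 to 0.55 for Serpinb6c, -1.33 to 0.12 for Serpinb9b and -0.30 to 0.26 for Serpinb6a. The cause was not tested. No paired analysis was possible because the genotypes share no replicate numbers. Depth limits the members under about 5 CPM most, since 1 read is worth 0.311 to 0.588 CPM.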

Other observations

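Serping1, the inhibitor of the complement protease C1, was below the mean needed for the test and was chosen after its values were seen. It had no read in any p63 alphaKO library, which allows up to 1.37, 1.00 and 1.76 CPM in replicates 9, 10 and 11. In wild type it was at 1.26, 1.55 and 1.91 CPM, from 15 reads in all.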
